A study of Drosophila melanogaster with 4 samples.

Results

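The sex determination cascade of Drosophila was described here through 8 genes, Sxl, tra, tra2, dsx, fru, ix, vir and fl(2)d, on arrays that set RNA bound by the splicing factor dASF/SF2 against RNA recovered with a control protein. Members were the array probes whose annotation held exactly 1 gene symbol, equal to 1 of these 8. They came to 13 probes of 8 genes, among 15744 probes in all and 12236 genes with a single-symbol probe. A value on all 4 arrays was present for 9 of the 13 member probes, covering 7 of the 8 genes, and for 81.6% of all probes. The gene left without such a probe was dsx.

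The study sought potential mRNA targets of dASF/SF2, an SR-family splicing factor, in the developing eye. An immunoprecipitation (IP) with an anti-GFP antibody was made from larvae in which the GMR driver expressed GFP-dASF/SF2 and, as the control, from larvae in which it expressed GFP-NLS, GFP with a nuclear localisation signal, and the RNA of the IPs was isolated. GMR is active in the eye disc behind the morphogenetic furrow, while each extract pooled the anterior ends of 600 third-instar larvae, which hold other tissues too, and the sex of the larvae is not given in the sources used here. Each of 4 arrays held the RNA of both IPs in separate colours: on 2 of them (replicates 1 and 2), called the Cy5 arrays below, GFP-dASF/SF2 carried the Cy5 label, and on their dye swaps, called the Cy3 arrays, it carried Cy3. The data thus form 2 replicates.

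In female flies the RNA-binding protein Sex-lethal (Sxl) directs the splicing of its own transcript and of transformer (tra) mRNA. Tra protein then acts with Transformer 2 (Tra2), an SR-like protein, to choose the female exon of doublesex (dsx) and the female splice site of fruitless (fru), and without them the male forms arise by default. The proteins of vir and fl(2)d belong to the m6A writer complex and are needed for female splicing of Sxl, and ix encodes the partner through which female Dsx works. Tra and Tra2 recruit SR proteins to the exonic enhancer of dsx, which is why the cascade is of interest beside an SR-protein IP. In the RefSeq annotation (Release 6 assembly), 25 transcripts are listed for Sxl, 15 for fru, 7 each for dsx and tra2, 4 for fl(2)d, 2 for tra and 1 each for ix and vir, against a median of 2 over 13962 protein-coding genes. An array probe reads 1 stretch of a transcript, and which isoforms each probe covers was not analysed here.

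The deposited values are log ratios whose base and numerator are not stated, so they are given in log-ratio units with no fold. Each array was centred on its median. The "deposited sign" leaves the arrays as they are, while the "turned" value reverses the sign of the Cy3 arrays. A positive turned value stands for more RNA in the dASF/SF2 IP under a Cy5-over-Cy3 ratio, and for less of it under a Cy3-over-Cy5 ratio. Under a ratio of 1 IP to the other, the deposited sign carries the comparison and the turned mean is a dye effect. Over 12847 fully measured probes, Pearson's r between dye swaps was 0.236 in replicate 1 and -0.054 in replicate 2 (Spearman's rho 0.191 and -0.467). Across replicates r was 0.435 between the 2 Cy5 arrays, 0.264 between the 2 Cy3 arrays, and -0.219 and -0.069 between a Cy5 and a Cy3 array. Across replicates, arrays of the same dye orientation were thus more alike. Under a ratio of 1 IP to the other this would be a dye effect, so the correlations do not settle the reading. Both means are therefore given for the cascade and, for the genes around it, the counts and named genes, and neither side is assigned to an IP. Values measured only ratios, so whether a gene was expressed cannot be read from them, and fewer cells of a type and less RNA per cell cannot be told apart.

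No member of the cascade passed limma's moderated test for a difference between the IPs, on either reading. The largest turned means were those of a tra2 probe (0.23 ± 0.20, SD, n = 2), the Sxl probes (0.17 ± 0.22 and 0.16 ± 0.24) and ix (0.17 ± 0.13), while tra, vir, fl(2)d and fru lay within 0.030 of 0. With the deposited sign the largest means were those of a Sxl probe (0.27 ± 0.06) and a fru probe (-0.20 ± 0.04). For turned values 0 of 9 member probes reached an adjusted p under 0.05 (0% of all 12847 probes did), and the adjusted p-values of the members ran from 0.203 to 0.922. At an unadjusted p under 0.05, 1 of the 9 member probes stood on the positive side, against 23.2% of all probes on either side and 9.57% on the positive side. With the deposited sign 0 of 9 passed (0% of all probes), with adjusted p-values in limma from 0.752 to 0.984, and an unadjusted p under 0.05 was found for 2 of 9, compared with 5.57% of all probes. With any 1 array left out, this count of 2 was 0 or 1. The median size of the turned means, regardless of sign, was 0.030 over the 9 member probes and 0.098 over all probes. With the deposited sign it was 0.10 over the members and 0.071 over all probes. With 1 value per gene, 0 of 7 member genes had an unadjusted p under 0.05 on the turned scale (24.1% of 10353 genes) and 1 of 7 with the deposited sign (10.1%).

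**Figure D1:**
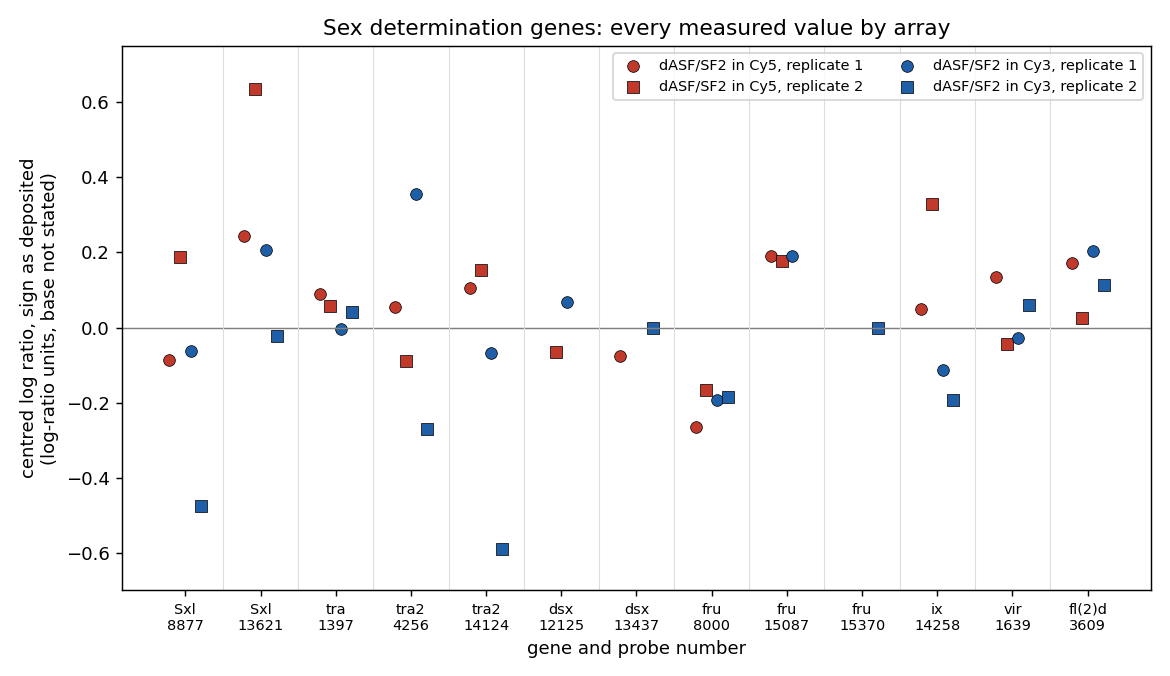
Centred log ratio (deposited sign, log-ratio units, vertical axis) of every measured value of the 13 member probes (horizontal axis), with colour for the dye of dASF/SF2 and marker shape for the replicate. The 4 values of fru probe 8000 lie together below 0 and the 3 of probe 15087 together above it, while tra2 probe 14124 and ix have the 2 Cy5 arrays above 0 and the 2 Cy3 arrays below it.

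At the head of the cascade, the 2 Sxl probes had positive turned means, which came almost wholly from replicate 2. Probe 13621 had centred log ratios of 0.245 and 0.635 on the Cy5 arrays (replicates 1 and 2) and 0.207 and -0.023 on the Cy3 arrays. Probe 8877 had -0.086 and 0.188 on the Cy5 arrays and -0.063 and -0.475 on the Cy3 arrays. For both probes the 2 arrays of replicate 1 lay close together, and those of replicate 2 were well apart, the Cy5 array being higher.

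The turned mean of probe 13621 was 0.17 ± 0.22 (SD, n = 2 replicates; adjusted p = 0.315 in limma) and that of probe 8877 was 0.16 ± 0.24 (adjusted p = 0.375). Replicate 1 alone gave 0.019 and -0.012 for the 2 probes, and replicate 2 alone 0.33 for each. Averaged over both probes, Sxl had a turned mean of 0.17 ± 0.23, which was 0.0038 without replicate 2. The 95% interval in limma ran from -0.052 to 0.40 for probe 13621, so 0 and a positive shift of 0.40 both lay within the precision of 2 replicates.

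With the deposited sign the Sxl probes parted. Probe 13621 was above probe 8877 on each of the 4 arrays, by 0.27 to 0.452, and their means were 0.27 ± 0.06 and -0.11 ± 0.05. This gap was larger than that of 96.8% of the 782 probe pairs of the 396 genes with more than 1 probe on all 4 arrays, while their turned means differed by 0.014, less than in most pairs (median 0.106). The mean of probe 13621 had an unadjusted p of 0.0178 and an adjusted p of 0.752 in limma, and was 0.10 without the Cy5 array of replicate 2 and 0.43 without its dye swap.

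The value of tra, whose transcript is the direct splicing target of Sxl, stayed close to 0. Its single probe (1397) had 0.09 and 0.058 on the Cy5 arrays and -0.005 and 0.041 on the Cy3 arrays. The 4 arrays lay within 0.1 of the array median. The turned mean was 0.028 ± 0.028 (adjusted p = 0.827 in limma, 95% interval -0.14 to 0.19), and the mean with the deposited sign was 0.046 ± 0.005. Of all probes, 15.0% had a turned mean nearer to 0.

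The 2 probes of tra2 differed from each other. Probe 14124 had 0.104 and 0.154 on the Cy5 arrays and -0.069 and -0.59 on the Cy3 arrays, so both Cy5 arrays were above both Cy3 arrays. Its turned mean of 0.23 ± 0.20 (SD, n = 2) was the largest of the 9 member probes, with 1 sign on all 4 turned arrays, an unadjusted p of 0.0421 and an adjusted p of 0.203 in limma. It was 0.12 without the Cy3 array of replicate 2, whose value was the farthest from 0.

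Probe 4256 of tra2 had 0.054 and -0.088 on the Cy5 arrays and 0.356 and -0.271 on the Cy3 arrays. These values had no common sign within an orientation, and the turned mean was -0.030 ± 0.171 (adjusted p = 0.852 in limma). Averaged over both probes, tra2 had a turned mean of 0.10 ± 0.19. This gene mean was 3.75e-04 without the Cy3 array of replicate 2, 0.199 without the Cy5 array of replicate 2 and -0.032 without replicate 2 as a whole, so it rests on which arrays are kept. The 2 tra2 probes had opposite turned signs, as did 41.3% of the 782 probe pairs, and their difference of 0.259 was larger than that of 83.5% of pairs.

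**Figure D2:**
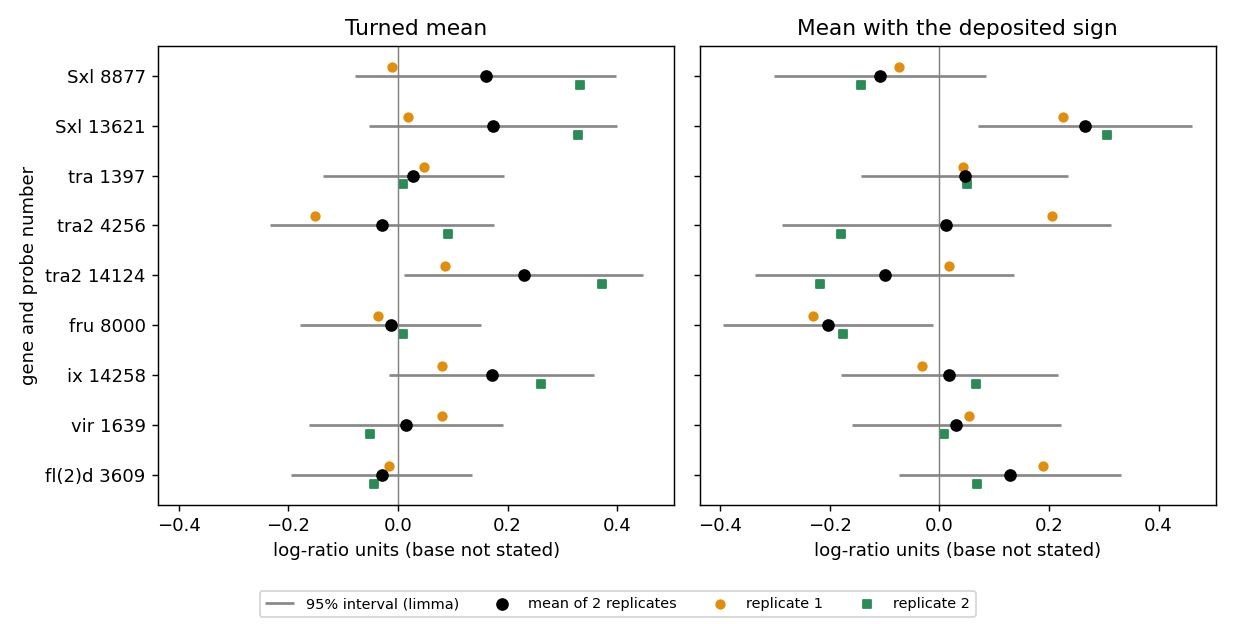
Mean over the 2 replicates (black) with limma's 95% interval (bars), and each replicate's value, for the 9 member probes on all 4 arrays, turned (left) and with the deposited sign (right), in log-ratio units. On the left the interval of tra2 probe 14124 alone lies clear of 0, and on the right those of Sxl probe 13621 and fru probe 8000 do, and none of the 3 passed after adjustment.

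The probes of fru, the neural target of Tra and Tra2, kept their sign under the dye swap and opposed each other. Probe 8000 had -0.266 and -0.167 on the Cy5 arrays and -0.194 and -0.185 on the Cy3 arrays. The 4 values agreed closely in sign and size whatever the dye. Its mean with the deposited sign was -0.20 ± 0.04 (unadjusted p = 0.0419, adjusted p = 0.752 in limma), and its turned mean was -0.014 ± 0.032. Probe 15087 was measured on 3 arrays, at 0.19 and 0.178 on the Cy5 arrays and 0.19 on the Cy3 array of replicate 1.

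On those 3 arrays probe 15087 was above probe 8000 by 0.345 to 0.456. Probe 15087 entered the test only where 1 array per replicate was enough, with a mean of 0.18 with the deposited sign (unadjusted p = 0.0669, adjusted p = 0.755 in limma). The third fru probe, 15370, had a single value, exactly 0, on the Cy3 array of replicate 2, and so gave no comparison.

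The 2 probes of dsx, the other target of Tra and Tra2, had 2 values each. Probe 12125 had -0.066 on the Cy5 array of replicate 2 and 0.069 on the Cy3 array of replicate 1. Probe 13437 had -0.076 on the Cy5 array of replicate 1 and exactly 0 on the Cy3 array of replicate 2, where 811 probes held exact zeros, against at most 35 on any other array. Every dsx value thus lay within 0.1 of the array median. Where 1 array per replicate was enough, the turned means were -0.068 and -0.038, with adjusted p-values of 0.618 and 0.794 in limma. Each replicate then rests on a single array of 1 dye orientation, so dye orientation and replicate cannot be told apart for dsx.

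The turned values of ix, the partner of female Dsx, had 1 sign. Its probe (14258) had 0.049 and 0.328 on the Cy5 arrays and -0.113 and -0.193 on the Cy3 arrays, both Cy5 arrays being above both Cy3 arrays. The turned mean was 0.17 ± 0.13 (SD, n = 2; unadjusted p = 0.0672, adjusted p = 0.247 in limma, 95% interval -0.017 to 0.36). Replicate 1 alone gave 0.081 and replicate 2 alone 0.26. Together with tra2 probe 14124, ix made 2 of 9 member probes with 1 sign on all 4 turned arrays, against 28.1% of all probes.

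The m6A complex genes of the cascade stayed near 0 when turned. The probe of vir (1639) had 0.135 and -0.043 on the Cy5 arrays and -0.027 and 0.059 on the Cy3 arrays, with a turned mean of 0.015 ± 0.093. The orientations overlapped fully. The probe of fl(2)d (3609) had 0.173 and 0.025 on the Cy5 arrays and 0.204 and 0.113 on the Cy3 arrays, all above 0. Its turned mean was -0.030 ± 0.020 (adjusted p = 0.815 in limma) and its mean with the deposited sign 0.13 ± 0.08 (adjusted p = 0.754). With fru probe 8000 it made 2 of 9 member probes with 1 sign on all 4 arrays as deposited, against 13.6% of all probes.

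By size of the turned mean the 9 probes ran tra2 14124, Sxl 13621, ix, Sxl 8877, and then, all within 0.030 of 0, fl(2)d, tra2 4256, tra, vir and fru 8000. At each step of this order the sizes of the 2 neighbours differed by less than the SD between replicates of at least 1 of them, so the order is not firm.

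The genes around the cascade were taken from 6 lists of 45 genes, of which 35 had a single-symbol probe and 33 were tested with 1 value per gene on the turned scale. In limma's moderated test 0 of these 33 passed after adjustment (0.029% of all genes did). At an unadjusted p under 0.05 there were 6 with a positive and 7 with a negative mean, compared with 24.1% of all genes in either direction. A positive turned mean was found for 50.3% of all genes. Their median turned mean was 0.001, the same as over all genes. As deposited, 0 of the 33 passed (0% of all genes), and 4 had an unadjusted p under 0.05, compared with 10.1% of all genes. These 4 were dpn (-0.27 ± 0.22), bab2 (-0.25 ± 0.35), Hakai (-0.24 ± 0.19) and upd1 (0.23 ± 0.28), with adjusted p-values in limma from 0.421 to 0.478. Their turned means were 0.094, -0.042, -0.13 and 0.30. The deposited sign gave a positive mean for 55.6% of all genes, and a median of 0.014.

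The 5 dosage compensation genes act in males and are held off in females by Sxl through msl-2. Their turned replicate means lay close together for msl-1, msl-2, msl-3 and mof, and apart for mle. The turned means of msl-3 (0.064 ± 0.028) and mof (0.0063 ± 0.043) were near 0. For msl-2, the male-specific subunit, the turned values were 0.224 and 0.225 on the Cy5 arrays and 0.333 and 0.3 on the Cy3 arrays, with a mean of 0.27 ± 0.01 (adjusted p = 0.0838 in limma). For msl-1, the scaffold of the complex, they were -0.54 and -0.443, and -0.266 and -0.482, with a mean of -0.43 ± 0.04 (adjusted p = 0.0626). On the turned scale msl-1 and msl-2 stood on opposite sides, each with 1 sign on all 4 arrays. A common sign on the 4 turned arrays was found for 3 of the 5 genes in this list and 29.5% of all genes. With the deposited sign msl-1 and msl-2 were both negative, at -0.059 ± 0.111 and -0.046 ± 0.012 (adjusted p = 0.847 and 0.881 in limma). The RNA helicase mle had a turned mean of -0.21 ± 0.19 (adjusted p = 0.195 in limma), which was -0.072 without replicate 2 and -0.343 without replicate 1, and a mean of 0.036 with the deposited sign. With the 4 arrays as observations and the replicate number as a block in limma, the adjusted p-values were 0.0188 for msl-2 and 0.011 for msl-1. That fit called 1364 of 10353 genes, against 3 without the block. Its estimated correlation within a block was negative (-0.355), which makes the standard errors smaller. The values with the replicate block given below come from the same fit. Over 12 alternatives for the turned mean, the adjusted p of msl-1 ran from 0.011 to 0.228 and was under 0.05 in 4, and that of msl-2 ran from 0.0188 to 0.257 and was under 0.05 in 1. For msl-1 it was 0.0214 and 0.0241 without the Cy3 arrays of replicates 1 and 2, and 0.164 and 0.228 without the Cy5 arrays of replicates 1 and 2. The list had 3 genes with an unadjusted p under 0.05, 1 positive and 2 negative, and a median turned mean of 0.0063, against -0.046 with the deposited sign.

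Of the cofactors of Sxl in splicing and translation, 5 of 6 had a negative turned mean, with a median of -0.13. The deposited sign gave 3 positive and 3 negative genes, with a median of 0.019. On the turned scale 2 had an unadjusted p under 0.05. These were pps, known as a protein partner of the Sxl cofactor Snf, at -0.28 ± 0.26 (adjusted p = 0.15 in limma) and U2af50, the large subunit of the U2AF splicing factor, at -0.22 ± 0.02 (adjusted p = 0.116, and 0.0399 with the replicate block, the lowest of 12 alternatives that reached 0.63). Without replicate 2 the value of pps was -0.095. As deposited, the mean of pps was 0.056 and that of U2af50 -0.0038.

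Of the activators and repressors of Sxl transcription in the early embryo, 7 of 8 had a positive turned mean, with a median of 0.12, and 2 positive and 1 negative gene had an unadjusted p under 0.05. The 2 positive genes were sc, at 0.33 ± 0.26 (adjusted p = 0.108 in limma), and upd1, at 0.30 ± 0.13 (adjusted p = 0.0858). Each was below 0 on the turned Cy3 array of replicate 1, at -0.122 and -0.219. As deposited, sc had 0.131 and upd1 0.227. The count of positive genes was also 7 of 8 with the deposited sign, with a median of 0.0996. The 1 with a common sign on all 4 turned arrays was gro, the Groucho corepressor, at -0.25 ± 0.03 (adjusted p = 0.0942 in limma, and 0.034 with the replicate block, the lowest of 12 alternatives that reached 0.515). It was -0.166 without the Cy3 array of replicate 2, and 0.033 with the deposited sign. The other m6A writer and reader genes had a median turned mean of -0.13 over 5 genes, 1 positive and 4 negative, against -0.023 with the deposited sign, 2 positive and 3 negative. In this list Mettl14, of the catalytic core, had a turned mean of 0.17 ± 0.09 (adjusted p = 0.204), which was 0.107 without replicate 2, and Flacc, of the accessory complex that holds vir and fl(2)d, had -0.27 ± 0.25 (adjusted p = 0.158), which was -0.089 without replicate 2. As deposited, Mettl14 had -0.023 and Flacc 0.033.

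Among splicing partners of dsx and fru, 2 genes were tested, with a median turned mean of -0.11, against 0.022 as deposited. SF2, the gene of the transgene, had turned values of -0.092 and -0.245 on the Cy5 arrays and -0.224 and -0.339 on the Cy3 arrays, all below 0. With 1 value per gene its adjusted p was 0.127 in limma, and 0.0375 with the replicate block, the lowest of 12 alternatives that reached 0.344. Its mean with the deposited sign was 0.057. Where SF2 probe values come from, the endogenous mRNA or the transgene, was not analysed here, so they check no label.

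Downstream of dsx and fru, 7 genes had a median turned mean of 0.021, with 4 positive and 3 negative, against 0.024 as deposited, with 5 positive and 2 negative. The yolk protein gene Yp2, a female-biased target of Dsx, had a turned mean of 0.17 ± 0.11 (adjusted p = 0.207 in limma), positive on all 4 turned arrays, which was 0.0975 without replicate 1. Its mean with the deposited sign was 0.042. The other yolk protein genes, Yp3 and Yp1, had turned means of 0.18 ± 0.06 and -0.013 ± 0.359, neither with 1 sign on all 4 turned arrays. As deposited, Yp3 had 0.098 and Yp1 0.071. On the turned scale the list held 2 genes with an unadjusted p under 0.05, both positive.

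**Figure D3:**
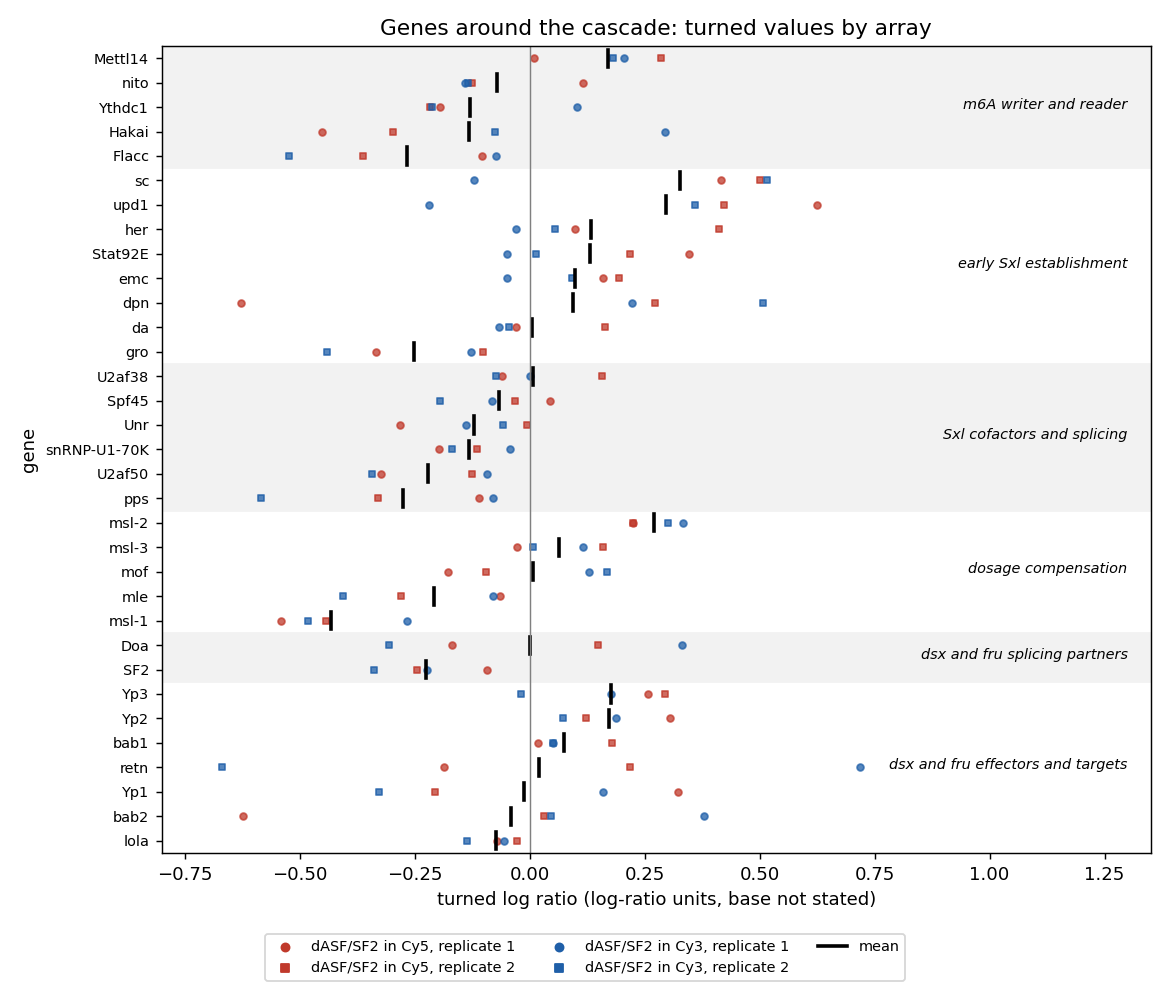
Turned log ratio (horizontal axis, log-ratio units) on each of the 4 arrays, and the mean (bar), for the 33 tested genes of the 6 lists around the cascade (vertical axis). The 4 values of msl-2 lie between 0.224 and 0.333 and those of msl-1 between -0.54 and -0.266, while most other genes scatter across 0.

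Tissue markers gave ratios and no levels, so the labelled tissue could not be checked by presence. Of 5 tested eye disc and photoreceptor genes 0 passed, 3 were positive and 2 negative with a median turned mean of 0.022, and sev, a receptor of photoreceptor fate, had -0.46 ± 0.15 (adjusted p = 0.0681 in limma, and 0.0136 with the replicate block, the lowest of 12 alternatives that reached 0.228 and were under 0.05 in 4). The glial gene repo had 0.32 ± 0.06 (adjusted p = 0.0729 in limma, and 0.016 with the block, the lowest of 12 that reached 0.242 and were under 0.05 in 2). The fat body genes had a median turned mean of -0.16 over 2 genes, with Lsp2 at -0.19 ± 0.08, which was -0.116 without the Cy5 array of replicate 2. The salivary gland gene Sgs3 had a turned mean of -0.019 ± 0.157 and a mean of -0.17 ± 0.07 with the deposited sign (unadjusted p = 0.0466, adjusted p = 0.482 in limma). As deposited, the 5 eye genes had a median of 0.086, with 4 positive and 1 negative, sev had 0.099, repo 0.026 and Lsp2 -0.052. The eye gene elav had 0.32 ± 0.45 as deposited (unadjusted p = 0.0312, adjusted p = 0.447 in limma), with 0.89 on the Cy5 array of replicate 2. Its turned mean was 0.098 ± 0.207. The muscle marker Mhc had no single-symbol probe. Their part in the values of the cascade was not tested.

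The genes with the most similar pattern over the 4 turned arrays, by Euclidean distance with 1 value per gene, were CG17618 (0.105), e (0.106), the ebony gene, and CG13690 (0.121) for Sxl, against a median distance of 0.591 over all genes. For tra they were the cuticle gene TwdlE (0.0202), CG5180 (0.0237) and morgue (0.0252), against a median of 0.377. With 4 arrays that share 2 replicates, such distances describe the values only. For dsx no distance could be taken.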

How the data were processed

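Each deposited value is a log-ratio score of 1 channel to the other, 1 column per array. How the authors corrected and normalised it, and its base and numerator, are not stated in the labels. The column medians lay close to 0, from 0 to 0.013, but this does not show whether the deposited scores had been centred. The value -10000 (73 cells) was read as missing. No scanner signal was used, so the number of arrays limits the precision.

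Gene names came from the platform's annotation at GEO, with 1 symbol for 13147 probes, of which 12519 had an Entrez identifier found in RefSeq, all 8 members included. The array names no build, and coordinates are left out. Arrays were centred on their median. The dye-swapped arrays of a replicate, which the study's design text pairs, were averaged first. The 2 replicate values were then tested against a mean of 0 over all 12847 probes, or over 10353 genes with probes averaged, with limma 3.58.1 (lmFit, eBayes) in R 4.3.3. P-values were adjusted by Benjamini-Hochberg with a threshold of 0.05, and the fit was tested on simulated data. In the simulation the turned values of the 2 arrays of a replicate varied together. In the data their estimated correlation was negative (-0.408 for turned probes), so the simulation does not check the p-values given here. Beyond their numbers nothing shows the replicates to be separate pools of larvae or separate IPs, so the p-values rest on a spread that may be technical. Figures: matplotlib 3.10.9, Python 3.11.15.

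The members and lists were chosen with earlier results of these data known. Named were all members, SF2, and from each list up to 4 genes of 1 sign on all 4 turned arrays with an unadjusted p under 0.05, or else the gene of the largest mean. Further list genes, among them those with an unadjusted p under 0.05 on either reading, were named beside these. For Sxl, tra and dsx the 3 most similar genes were sought.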

Additional observations from a re-analysis of the deposited data

How the results depend on the processing

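No member passed an adjusted p of 0.05 in limma in any of 14 settings with a test, whether by probe or by gene, turned or with the deposited sign. The lowest adjusted p of a member value under an alternative was 0.109, for ix with the replicate block. Of 257 member values recomputed under an alternative with a test, 20 changed sign. Of these, 14 arose with 1 array left out, 5 with arrays not turned and 1 otherwise. With the replicate block, independent arrays or a dye term, among others, the means of fully measured members stay as they were. Their signs could not change there, so the 257 overstate how often a sign was put to a check. Leaving out a whole replicate allowed no test and gave 42 more values, of which 8 changed sign. Scaling the arrays to 1 spread put fru probe 8000 at 0.0021 turned. Not turning the arrays reversed fl(2)d (0.129), tra2 probe 4256 (0.013), tra2 probe 14124 (-0.100), tra2 over both probes (-0.044) and Sxl probe 8877 (-0.109), as it did Flacc (0.033), gro (0.033), Mettl14 (-0.023), mle (0.036), msl-2 (-0.046), pps (0.056), sev (0.099) and SF2 (0.057).

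Leaving out 1 array or 1 replicate gave turned means from -0.051 to 0.081 for vir, from -0.124 to 0.065 for fl(2)d, from -0.151 to 0.092 for tra2 probe 4256, from -0.129 to 0.102 for fru probe 8000, from -0.012 to 0.33 for Sxl probe 8877, from -0.032 to 0.232 for tra2 over both probes and from -0.132 to 0.094 for Sgs3. With the deposited sign the means ran from -0.0095 to 0.072 for vir, from -0.180 to 0.205 for tra2 probe 4256, from -0.275 to 0.057 for Sxl probe 8877, from -0.286 to 0.086 for tra2 probe 14124 and from -0.113 to 0.148 for ix. Member probes of 1 sign on all arrays kept then numbered 2 to 5 turned and 2 to 6 with the deposited sign, and member genes 1 to 4 and 2 to 4, where fewer arrays need to agree. The shares over all probes and genes with arrays left out are not given here, so these counts are no result about the members. Without turning, 2 of 7 member genes had 1 sign on all 4 arrays (13.1% of all genes did), against 1 of 7 turned (29.5% of all genes).

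Counts over all probes or genes depended on the setting. With the replicate block (estimated correlation within a block of -0.408 for probes and -0.355 for genes) limma called 1119 probes and 1364 genes on the turned scale, against 0 and 3 without it. A negative correlation makes the standard errors of that fit smaller. Genes called on the turned scale were 37 without centring, 54 with 4 independent arrays and 180 with a dye term. They were 0 with arrays scaled to 1 spread, with 1 measured array per replicate, with exact zeros read as missing and with arrays not turned. With arrays scaled to 1 spread, 4 genes were called with the deposited sign. Leaving out 1 array gave 0 to 184 probes and 0 to 418 genes turned, and 0 to 23 genes with the deposited sign. The cause of these differences was not tested.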
